A study of Mus musculus with 2 samples.

Results

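Dermal macrophages in mouse back skin were studied in 2 tissue sections, 1 from skin treated with SspA+HDM and 1 from mock-treated skin. They are described here as the cells chosen by 4 marker genes, Ms4a7, Pf4, F13a1 and Folr2. A segmented cell with at least 20 transcripts was counted as a macrophage where these genes gave at least 3 transcripts and at least 4% of its total. It also had to hold less than 5% from the 4 keratinocyte genes Trim29, Dsc3, Serpinb5 and S100a14, less than 10% from the fat-cell gene Car3 and less than 5% from the mast-cell gene Cpa3. A share of 30% or more from the 5 skeletal muscle genes Ttn, Pvalb, Actn3, Pygm and Des also ruled a cell out of the class. This gave 3648 macrophages among 59588 cells, of which 2756 lay in the SspA+HDM section and 892 in the mock section. No cell identifier was shared by both sections.

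The SspA+HDM group was C57BL/6 back skin, shaved and depilated, that received SspA and HDM on its surface, and the mock group was skin of the same strain, prepared the same way, that received PBS. Both were 5-µm slices of paraffin-embedded, formalin-fixed tissue taken 7 days after treatment and read with Xenium In Situ, which decodes single transcripts of a gene panel at their positions. There was 1 sample per treatment and the labels give no number of animals, which leaves every difference without replication, so nothing was tested and no p-value is given. Each section held 2 strips of tissue, whose values are given side by side as parts of 1 sample and not as replicates. Intervals are at 95% and cover counting error only.

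Macrophages are phagocytes that clear debris and microbes, present antigen, and release chemokines, complement proteins and growth factors. In skin some are long-lived residents, often recognised by Folr2, Lyve1 and Retnla, and others arise from blood monocytes that enter after injury or inflammation. Of the marker genes, Folr2 encodes a folate receptor, F13a1 the A chain of coagulation factor XIII, Pf4 the chemokine platelet factor 4, and Ms4a7 a membrane protein of the MS4A family.

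The sections gave 8124205 gene transcripts of quality 20 or above for SspA+HDM and 2461475 for mock, over 379 genes. A macrophage held a median of 86 transcripts in SspA+HDM and 79 in mock, against 131 and 111 in the other cells of those sections. Its outline covered a median of 136 µm2 in SspA+HDM and 215 µm2 in mock, against 87.8 and 130 µm2 for other cells. An outline can take in transcripts of the cells around it. Levels are given as CPM, which here is a gene's transcripts divided by all panel transcripts of the same cells and scaled in the usual way, and genes were compared only under a limit on such spill-over, described with the comparison.

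The 4 markers were not equally common. F13a1 was detected in 93.8% of SspA+HDM macrophages and 97.5% of mock macrophages, and it gave 48.1% and 53.9% of their marker transcripts. Pf4 was detected in 71.8% of SspA+HDM and 68.3% of mock macrophages. Folr2 was detected in 60.4% of SspA+HDM and 56.2% of mock macrophages. Ms4a7 stood apart from the other three, with 66.5% of SspA+HDM macrophages against 38.5% of mock macrophages and 15464 CPM against 7581 CPM. These values describe genes that selected the cells, and nothing is inferred from them. All 4 markers were found together in 30.7% of SspA+HDM and 17.7% of mock macrophages, and a single marker carried the call in 6.64% and 13.2%. In epithelial cells, which should lack these genes, Ms4a7 was seen in 1.28% of SspA+HDM and 0.868% of mock cells at median depths of 155 and 126 transcripts. Pf4 was seen in 1.85% and 2.27% of them and Folr2 in 1.07% and 1.28%. F13a1 was the most frequent of the 4 there, with 3.64% of SspA+HDM and 9.69% of mock epithelial cells. Skeletal muscle cells, at the greater median depths of 305 and 309 transcripts, held all of these genes more often. F13a1 was seen in 45.3% of SspA+HDM and 33.9% of mock muscle cells, and Folr2 in 28.0% and 19.2%. Pf4 was seen in 21.7% and 17.4% of them and Ms4a7 in 14.3% and 3.99%. The source of these transcripts in muscle cells was not tested.

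The cells just inside and just outside the limits carried other macrophage transcripts too. Ctss encodes cathepsin S, a lysosomal protease of antigen-presenting cells. It stood at 38612 CPM in the 353 SspA+HDM cells and 29272 CPM in the 143 mock cells that had exactly 3 marker transcripts and met the 4% limit. In cells with 2 marker transcripts and the same share, which the rule leaves out, it stood at 37559 CPM in 328 SspA+HDM cells and 25744 CPM in the mock cells. Cells with at least 3 marker transcripts at 3 to 4% of the total, also left out, had 25155 CPM in SspA+HDM and 20129 CPM in mock. Among the cells under the keratinocyte, fat, mast and muscle limits, those with no marker transcript, 8234 in SspA+HDM and 2263 in mock, held 3594 and 9873 CPM. The cells left out with 2 marker transcripts were thus near the members with exactly 3 in their Ctss level. Other macrophage genes were less alike. In mock, Ms4a6c was 5548 CPM with 2 marker transcripts and 9486 CPM with 3, and Mpeg1 4882 and 6640 CPM. In SspA+HDM, Ms4a6c was 9966 and 11510 CPM, while Mpeg1 went the other way, at 10213 and 6747 CPM.

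Beyond the genes that selected them, the macrophages were richest, relative to all other cells of their section, in Ccl12, Csf3r, Ms4a6b, Clec4a3, C5ar1, Ms4a6c, Cybb, Ccl9, Ctss and Retnla. Ccl12 and Ccl9 encode chemokines, of which Ccl12 attracts monocytes. C5ar1 is the receptor for the complement fragment C5a, Cybb a subunit of the phagocyte NADPH oxidase, Csf3r the receptor for granulocyte colony-stimulating factor, and Clec4a3 a C-type lectin receptor. Ccl12 was 24.9 times as high as in other cells of the SspA+HDM section and 28.4 times as high as in other cells of the mock section. Retnla, the lowest of the 10, was 9.83 times as high in SspA+HDM and 11.6 times as high in mock. These folds describe cells picked by their expression and carry no test. All 7 of the compared genes from the list of general macrophage genes, Ms4a6c, Ms4a6b, Mpeg1, Clec4a3, Ctss, C5ar1 and Cybb, were at least 3 times as high in macrophages as in cells within 25 µm, in both sections.

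Transcripts of other cell types were present in the macrophage outlines. The 6 measured fibroblast markers, Pi16, Lum, Bgn, Igfbp6, Pcolce2 and Dpt, made up 15.5% of macrophage transcripts in SspA+HDM (15.5% and 15.6% by strip) and 17.9% in mock (18.1% and 17.7%), and 88.8% and 89.3% of macrophages held at least 5% of them. No defining fibroblast marker was at 0. Skeletal muscle markers made up 4.20% of macrophage transcripts in SspA+HDM and 3.88% in mock, adipocyte markers 3.10% and 2.20%, and mural cell markers 1.07% and 1.16%. The muscle, mast-cell and Car3 shares are capped by the rule. The measured markers of mast cells and of T and NK cells, by contrast, gave under 1% in both sections, and no marker of B cells, melanocytes or dendritic cells from the lists used was on the panel. Dendritic cells and macrophages could therefore not be told apart by those markers.

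Macrophages made up a similar share of cells under both treatments. They were 6.22% (6.00 to 6.45%) of SspA+HDM cells and 5.83% (5.46 to 6.21%) of mock cells, a ratio of 1.07 with an interval of 0.990 to 1.15. The strips held 6.11% and 6.32% in SspA+HDM and 5.78% and 5.87% in mock. The SspA+HDM tissue was thicker and more cellular, so the number per length differed more: 163 and 197 macrophages per mm in the SspA+HDM strips against 59.5 and 68.3 per mm in the mock strips, a ratio of 2.81. Among cells that were not epithelial, muscle or fat cells, the share was 15.4% in SspA+HDM and 16.8% in mock, a ratio of 0.919. The direction of the share thus turned with the denominator. Within the SspA+HDM strips, the end at the higher position along the length held 7.00% and 6.66% macrophages and the other end 4.82% and 5.85%, while the corresponding mock ends were between 5.74% and 5.94%.

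**Figure D1:**
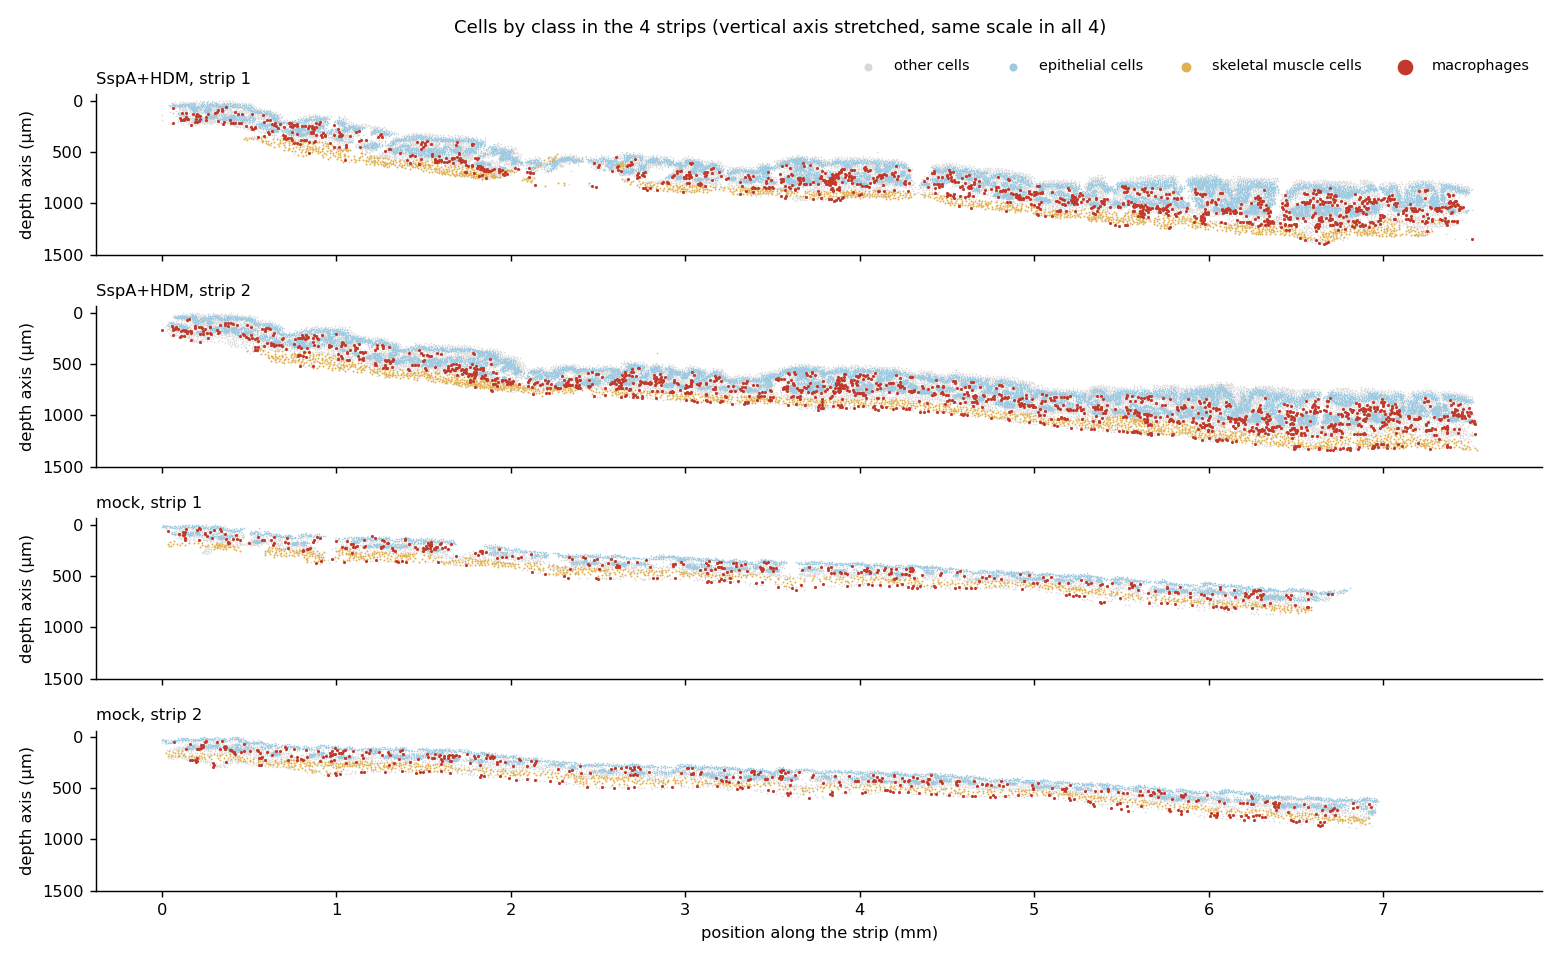
Cells of the 4 strips at their positions, with the distance along the strip in mm on the horizontal axis and the depth axis in µm on the vertical axis, surface at the top. Macrophages (red) lie among the follicles and in a second band beneath the skeletal muscle cells (yellow); in mock strips 213 of 892 macrophages lie in that lower band.

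The macrophages did not all lie in the dermis. Skeletal muscle cells formed a sheet along each strip, and cells were sorted by whether they lay above, within or beneath it. Above the muscle lay 2254 macrophages in SspA+HDM (81.8%) and 658 in mock (73.8%). Beneath it lay 188 in SspA+HDM (6.82%) and 213 in mock (23.9%), and within it 166 and 18. The layer could not be set for 148 SspA+HDM and 3 mock macrophages, where too few muscle cells were near. The label dermal therefore describes most members but not those beneath the muscle.

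Beneath the muscle, macrophages were a larger share of cells than above it under both treatments. They were 22.5% of the SspA+HDM cells of that layer (19.7 to 25.5%) and 21.3% of the mock cells (18.8 to 24.0%). They did not lie closer together there. The nearest other macrophage was at a median of 17.4 µm beneath and 13.4 µm above the muscle in SspA+HDM. In mock these medians were 23.1 and 18.5 µm. In number per length, macrophages beneath the muscle were 5.75 and 18.8 per mm in the SspA+HDM strips. The mock strips held 11.6 and 18.9 per mm, so the groups overlapped. Above the muscle the share was 6.06% in SspA+HDM (5.82 to 6.31%) and 5.31% in mock (4.92 to 5.72%), and the number per length was 134 and 160 against 46.0 and 48.3 per mm. Within the muscle there were 11.6 and 10.04 macrophages per mm in the SspA+HDM strips against 1.44 and 1.14 per mm in the mock strips. The strips of the 2 sections thus did not overlap above or within the muscle, and overlapped beneath it. By depth from the surface, the outermost 50 µm held 0.688% and 0.511% macrophages in SspA+HDM and 3.13% and 2.93% in mock. The highest shares lay at 350 to 400 µm in SspA+HDM, with 18.1% and 16.7%. In mock they lay at 200 to 250 µm in strip 1, with 18.1%, and at 250 to 300 µm in strip 2, with 19.2% of only 78 cells.

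**Figure D2:**
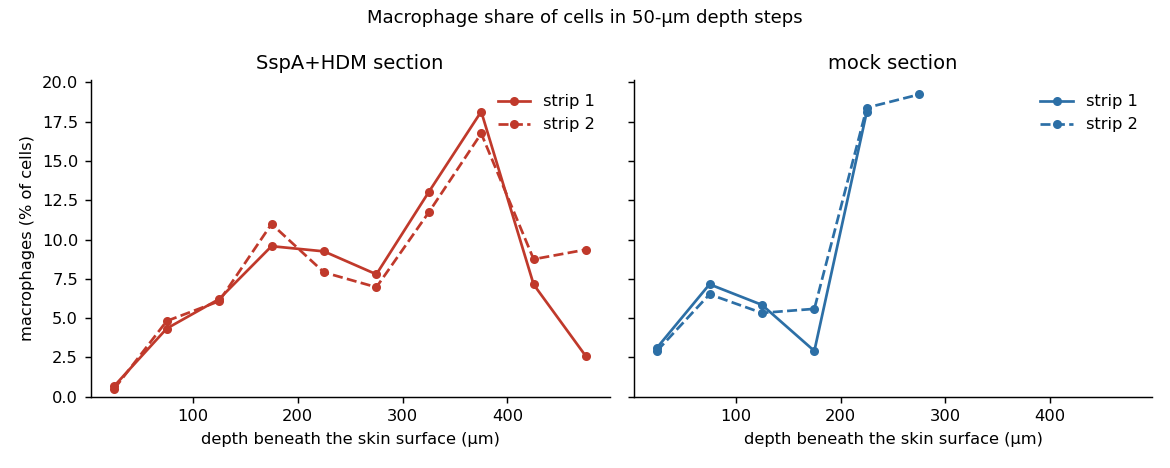
Macrophages as a percentage of cells in 50-µm steps of depth beneath the surface (horizontal axis, µm), for the strips of the SspA+HDM section (left) and the mock section (right). The 2 strips of a section part most at 450 to 500 µm in SspA+HDM, with 2.56% and 9.36%, and at 150 to 200 µm in mock, with 2.92% and 5.59%, and every strip has a peak in its deep tissue, near 18% in both strips of mock at 200 to 250 µm and in strip 1 of SspA+HDM at 350 to 400 µm.

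The neighbours of macrophages differed in distance between the sections. The median distance from a macrophage to the nearest epithelial cell was 28.2 µm in SspA+HDM and 22.8 µm in mock, against 22.4 and 34.2 µm for other non-epithelial cells. The rule removes macrophages whose outlines hold keratinocyte transcripts, so short distances are trimmed. The nearest blood endothelial cell lay at a median of 31.5 µm in SspA+HDM and 63.7 µm in mock. For other non-epithelial cells, here without blood endothelial cells, it lay at 38.5 and 57.0 µm. Blood endothelial cells were also more numerous, 1574 in SspA+HDM and 252 in mock. Another macrophage lay at a median of 13.8 µm in SspA+HDM and 20.04 µm in mock. Above the muscle the macrophage medians to blood endothelium were 28.7 µm in SspA+HDM and 50.2 µm in mock. For the same other non-epithelial cells they were 33.2 and 48.2 µm. Beneath the muscle the macrophage medians were 84.2 and 98.1 µm, against 87.0 and 99.4 µm. To epithelium, the macrophage medians above the muscle were 24.8 µm in SspA+HDM and 17.3 µm in mock. For other non-epithelial cells they were 17.6 and 18.9 µm. Beneath the muscle the macrophage medians to epithelium were 158 and 126 µm, against 155 and 123 µm. In both layers the macrophage median to blood endothelium was shorter in SspA+HDM and that to epithelium longer.

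To ask how expression differed between the treatments, the CPM of each gene in SspA+HDM macrophages was divided by that in mock macrophages. A gene was compared if the rule did not use it and if it had at least 50 macrophage transcripts in at least 1 section. Its macrophage CPM also had to be at least 1.5 times that of the other cells within 25 µm, which limits spill-over. That limit was applied only in the section where the macrophage CPM was higher. A gene could thus enter through the section where it was high, and spill-over in the other section was not checked. These limits left 62 genes. At the 2-fold limit, SspA+HDM macrophages had 7 genes higher, which is 11.3% of those compared, and 14 lower, which is 22.6%. The median log2 ratio of the 62 was -0.03. For each of the 21 genes, both SspA+HDM strips lay on the same side of both mock strips, as they did for 51 of the 62 compared genes in all.

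Retnla had the lowest ratio. It encodes RELM-alpha (Fizz1), a secreted protein that is induced by interleukin 4 and interleukin 13 and is a textbook marker of alternatively activated macrophages. Its level was 2909 and 4965 CPM in the SspA+HDM strips, against 38184 and 51276 CPM in the mock strips. The strips of the sections were far apart. Over each section it was 4065 CPM in SspA+HDM and 45364 CPM in mock, a ratio of 0.0896 (0.0838 to 0.0957), so that the mock level was 11.2 times the SspA+HDM level. It was detected in 9.76% of SspA+HDM macrophages and 40.1% of mock macrophages. Among the 2524 SspA+HDM and 820 mock macrophages with at least 40 transcripts, thinned to 40, it was detected in 6.46% and 36.2%. Epithelial cells, which should lack it, held a Retnla transcript in 0.238% of SspA+HDM and 2.15% of mock cells. Skeletal muscle cells, at median depths of 305 and 309 transcripts, held it in 19.5% of SspA+HDM and 39.2% of mock cells. Among muscle cells with at least 40 transcripts, thinned to 40, these shares were 6.10% and 15.5%.

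The share of macrophages beneath the muscle differed between the sections, so Retnla was also compared within layers. Beneath the muscle it was 35605 and 33069 CPM in the SspA+HDM strips and 123652 and 132172 CPM in the mock strips, a ratio of 0.261 (0.241 to 0.283). Above the muscle it was 631 and 998 CPM in the SspA+HDM strips and 8925 and 9274 CPM in the mock strips, a ratio of 0.0919 (0.0773 to 0.109). Retnla was lower in SspA+HDM in both layers, and higher beneath than above the muscle in both sections, 40.3-fold in SspA+HDM and 14.2-fold in mock. A Retnla transcript was found in 72.3% of SspA+HDM and 96.2% of mock macrophages beneath the muscle, and in 3.64% and 21.4% of those above it.

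Retnla also occurred in cells rich in fibroblast markers (at least 10% of transcripts) that were not macrophages. These stood at 685 CPM in SspA+HDM and 10611 CPM in mock, lower than the macrophages in each section. In macrophages with no transcript of the fibroblast gene Pi16, Retnla was 1793 CPM in SspA+HDM and 21649 CPM in mock. These were 1529 of 2756 SspA+HDM and 190 of 892 mock macrophages. Pi16 is 1 of the 6 fibroblast markers and itself differed between the sections, and the part of fibroblast transcripts in the difference was not tested.

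The bases around the start of Retnla are shown as the gene with the lowest ratio. Shown beside it are Ccl12 and Cd300lf, as genes higher in SspA+HDM, and Pf4, as a selecting marker whose level differed little. Each is the RefSeq window of 300 bases on GRCm38.p6, from 250 before the annotated start to 50 after it, written 5′ to 3′ in the direction of transcription. Capitals mark matches, on either strand, to GAGGAAGT (the sort of site bound by the macrophage factor PU.1 and other ETS proteins), TTC and GAA with 4 bases between them (the spacing bound by STAT6) and TATAAA (the TATA box).
Retnla, chr16:48842359-48842658, plus strand: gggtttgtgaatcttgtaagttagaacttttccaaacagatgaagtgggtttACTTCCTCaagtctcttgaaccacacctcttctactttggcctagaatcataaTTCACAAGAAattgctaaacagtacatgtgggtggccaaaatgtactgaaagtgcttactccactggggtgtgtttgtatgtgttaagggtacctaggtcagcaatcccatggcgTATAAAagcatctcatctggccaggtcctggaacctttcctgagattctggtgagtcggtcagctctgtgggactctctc
Ccl12, chr11:82101595-82101894, plus strand: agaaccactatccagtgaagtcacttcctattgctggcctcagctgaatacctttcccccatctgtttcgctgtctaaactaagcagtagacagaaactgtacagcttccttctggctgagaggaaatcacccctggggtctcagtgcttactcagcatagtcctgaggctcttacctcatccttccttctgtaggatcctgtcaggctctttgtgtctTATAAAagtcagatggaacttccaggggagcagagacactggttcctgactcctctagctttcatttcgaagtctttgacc
Cd300lf, chr11:115133943-115134242, minus strand: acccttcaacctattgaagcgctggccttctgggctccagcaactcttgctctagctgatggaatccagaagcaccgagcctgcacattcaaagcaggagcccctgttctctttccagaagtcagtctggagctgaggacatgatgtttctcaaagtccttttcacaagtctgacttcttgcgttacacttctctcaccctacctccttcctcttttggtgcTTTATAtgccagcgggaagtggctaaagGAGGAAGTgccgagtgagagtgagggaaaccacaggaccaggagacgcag
Pf4, chr5:90772185-90772484, plus strand: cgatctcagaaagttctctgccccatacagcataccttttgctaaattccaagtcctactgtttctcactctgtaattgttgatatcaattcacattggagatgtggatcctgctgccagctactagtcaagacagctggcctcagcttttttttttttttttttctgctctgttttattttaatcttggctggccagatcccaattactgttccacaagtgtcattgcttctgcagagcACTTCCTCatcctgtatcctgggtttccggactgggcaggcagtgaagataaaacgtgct

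The Retnla window held 1 match to each of these 3 motifs, counted from its 5′ end at bases 53 to 60, 106 to 115 and 221 to 226. The Ccl12 window held only the TATAAA match, at bases 220 to 225. Cd300lf held GAGGAAGT at 251 to 258 and TATAAA on the reverse strand, and Pf4 held GAGGAAGT on the reverse strand at 241 to 248. Of all 32851 windows in the table, 3.20% held GAGGAAGT, 6.95% held TTC and GAA at that spacing and 13.6% held TATAAA. Another motif, TTGCGCAA, which C/EBP factors bind, is in 0.183% of all windows and in none of the 19 windows of the genes looked up. Of the 17 genes looked up, 15 had a window, and Lyve1 and Mmp9 had none. The genes were taken for their results and the motifs were picked with some matches already seen, so these matches describe the letters only.

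Lyve1, a hyaluronan receptor found on resident macrophages and on lymphatic vessels, had the next lowest ratio. It stood at 1231 and 1420 CPM in the SspA+HDM strips and at 4742 and 6059 CPM in the mock strips, a ratio of 0.245 (0.213 to 0.281). Beneath the muscle the ratio was 0.479 (0.394 to 0.581) and above it 0.442 (0.341 to 0.574), so the difference within a layer was smaller than over all macrophages. Like Retnla, it was higher beneath the muscle, 9.04-fold in SspA+HDM and 8.33-fold in mock. The other 2 measured lymphatic markers also stood lower in SspA+HDM macrophages, Prox1 at 186 against 418 CPM and Mmrn1 at 756 against 1920 CPM. The part of lymphatic transcripts in the Lyve1 difference was not tested.

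Mmp9, which encodes a gelatinase that cuts extracellular matrix, was 1159 and 941 CPM in the SspA+HDM strips and 2562 and 3725 CPM in the mock strips, a ratio of 0.324 (0.273 to 0.384). Its ratio was alike in the layers, 0.431 beneath the muscle and 0.445 above it. Retnla, Lyve1, Mmp9 and Pcolce2 were the genes at least 2-fold lower in both layers, 4 of the 39 that could be compared in both, and no gene was at least 2-fold higher in both. Pcolce2, which enhances the processing of procollagen, was 6473 CPM in SspA+HDM and 15544 CPM in mock.

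Several of the other lower genes are known from fibroblasts or smooth muscle. Pi16, a peptidase inhibitor known from adventitial fibroblasts, was 13626 CPM in SspA+HDM and 49585 CPM in mock, and Igfbp6, a binding protein of insulin-like growth factor II, 6669 and 16061 CPM. Cnn1 and Tagln, which encode the smooth muscle proteins calponin and transgelin, had ratios of 0.265 and 0.496. Sod3, extracellular superoxide dismutase, S100a4, a calcium-binding protein, Tmem100, Mamdc2, Fibin and Klra8 completed the 14, with ratios from 0.262 for Fibin to 0.491 for Klra8. Of the 14 genes, 5 were at least 1.5 times as high in macrophages as in other cells rich in fibroblast markers, in the section of the gene's higher level, and 4 were at least 3 times as high as in cells within 25 µm. Over all macrophages the fibroblast markers did not move as one: Lum was 45411 CPM in SspA+HDM and 35198 CPM in mock, and Dpt 29989 and 37512 CPM. How much of the differences in these genes lay in fibroblast transcripts inside the outlines was not tested.

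The higher genes included chemokine and receptor genes. Ccl12 was 2206 and 2006 CPM in the SspA+HDM strips and 845 and 785 CPM in the mock strips, a ratio of 2.58 (1.996 to 3.38). It was found above the muscle far more than beneath it: 2511 CPM above and 397 CPM beneath in SspA+HDM, and 1190 CPM above and none beneath in mock. The mock count of 0 came from 213 cells. Within the layer above the muscle the ratio was 2.11 (1.63 to 2.77). A Ccl12 transcript was found in 13.4% of SspA+HDM and 5.04% of mock macrophages, against 0.5001% and 0.259% of epithelial cells.

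Csf3r was 4420 and 4324 CPM in the SspA+HDM strips and 2099 and 1346 CPM in the mock strips, a ratio of 2.59 (2.17 to 3.11). It was detected in 29.6% of SspA+HDM and 11.4% of mock macrophages. Csf3r is also a gene of neutrophils, and the 3 measured granulocyte markers, Csf3r, Cxcr2 and Mmp8, gave 0.510% of macrophage transcripts in SspA+HDM (0.524% and 0.4996% by strip) and 0.177% in mock (0.215% and 0.146%). Cxcr2, the receptor for neutrophil-attracting chemokines, had 138 macrophage transcripts in SspA+HDM and 1 in mock, and Mmp8, neutrophil collagenase, 73 and 6. Cxcr2 or Mmp8 was found in 5.08% of SspA+HDM and 0.673% of mock macrophages. Csf3r together with Cxcr2 or Mmp8 was found in 2.10% and 0.224%. The part of neutrophil transcripts in the Csf3r difference was not tested. In epithelial cells Cxcr2 was seen in 14.3% in SspA+HDM and 1.69% in mock, against 3.01% and 0.112% of macrophages, so it is not read here as macrophage expression. Among macrophages without any of the 3 markers, 7 genes were at least 2-fold higher and 11 lower. Csf3r and Mmp8, both among the genes higher over all macrophages, have no transcripts in those cells by that choice. The 7 genes are therefore not the same ones, and the equal count does not show which genes stayed.

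Cd300lf, an inhibitory receptor of myeloid cells, was 2132 CPM in SspA+HDM and 911 CPM in mock, and Atp6v0d2, a subunit of the proton pump of lysosomes, 504 and 222 CPM. Their ratios were 2.34 (1.84 to 3.02) and 2.28 (1.39 to 3.95), and Atp6v0d2 rested on 18 mock transcripts. Ccn3, a matricellular protein, was 3592 CPM in SspA+HDM and 1341 CPM in mock. Its ratio of 2.68 was 5.06 above the muscle and 0.904 beneath it. Ctla4, an inhibitory receptor of T cells, had 134 transcripts in SspA+HDM and 12 in mock, and the T-cell gene Cd3d had 104 and 6. The part of T-cell transcripts in the Ctla4 difference was not tested. The next genes, below the 2-fold limit, were Rac2, a GTPase of the phagocyte oxidase, with a ratio of 1.88, Lst1 with 1.84 and Ms4a6b with 1.75.

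**Figure D3:**
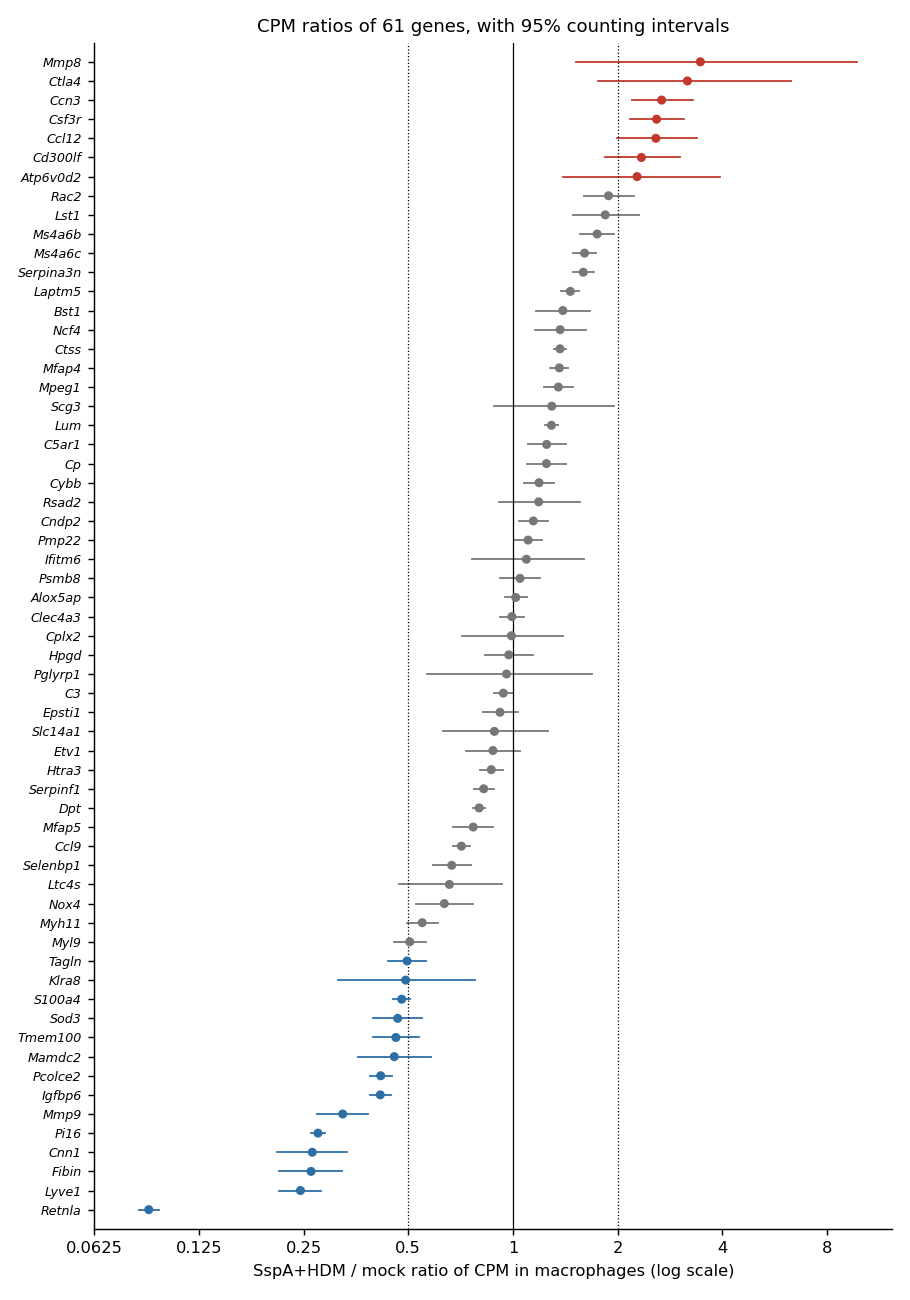
Ratio of CPM in SspA+HDM over mock macrophages (horizontal axis, log scale) for 61 of the 62 compared genes, with 95% counting intervals; the genes at least 2-fold higher in SspA+HDM are red, those at least 2-fold lower blue, and dotted lines mark 2-fold. Retnla stands alone at the low end at 0.0896, and the highest ratios, Mmp8 and Ctla4, have wide intervals.

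The gene lists put these values in order of function. Of the resident macrophage genes, 5 of 20 were measured and 3 of those selected the cells. The remaining Retnla and Lyve1 were both lower, with a median log2 ratio of -2.76 beside -0.03 for all 62 genes. Their median was -2.31 above the muscle and -1.50 beneath it, beside 0.02 and 0.10 for all genes compared in those layers. Both genes entered the comparison through their higher mock level, so these medians describe the pair and not the list. The selecting genes of that list differed little, F13a1 with a ratio of 0.890, Folr2 with 0.891 and Pf4 with 0.953. Of the general macrophage genes, 7 were compared and none reached 2-fold, with a median log2 ratio of 0.43. Ctss was 48845 CPM in SspA+HDM and 35764 CPM in mock, and Mpeg1, which encodes the pore-forming perforin-2, 8378 and 6203 CPM. Clec4a3, 9299 and 9366 CPM, had a ratio of 0.993 (0.916 to 1.08).

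Among the chemokine genes Ccl9 had a ratio of 0.711 (0.672 to 0.752) and Ccl12 was the only one past 2-fold. The atypical receptor Ackr3, 1288 CPM in SspA+HDM and 2424 CPM in mock, and the platelet chemokine Ppbp, with 18 and 10 transcripts, did not meet the limits of the comparison. Of the complement genes, C3, the central component, had a ratio of 0.938, and C5ar1 1.25. The interferon-induced genes Rsad2 and Psmb8 had ratios of 1.19 and 1.05, the monocyte gene Ifitm6 1.09, and Hpgd, which degrades prostaglandins, 0.973. The scavenger genes Marco, with 34 and 17 transcripts, Cd5l, with 34 and 19, Clec4f, with 7 and 2, and Cd36 were not compared. Neither were Areg, with 24 and 1 transcripts, nor Il1r2, the decoy receptor for interleukin 1, at 2048 CPM in SspA+HDM and 6560 CPM in mock, whose level was only 1.44 and 1.47 times that of nearby cells.

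Within layers the list of differing genes changed. Above the muscle, 8 of the 62 genes (12.9%) passed the 2-fold limit upward in SspA+HDM and 13 (21%) downward. The higher ones were the 7 named above and Rsad2, an antiviral gene, with 1061 CPM in SspA+HDM and 487 CPM in mock. Beneath the muscle, 7 of 39 genes (17.9%) were higher, namely Bst1, Cp, Ctss, Mfap4, Mpeg1, Ms4a6c and Serpina3n, and 5 (12.8%) were lower, namely Retnla, Lyve1, Mmp9, Pcolce2 and Dpt. Of the general macrophage genes, 3 of 7 were at least 2-fold higher there. Ctss was 39038 and 45842 CPM in the SspA+HDM strips beneath the muscle and 20460 and 20211 CPM in the mock strips. Mpeg1 was 8510 CPM in SspA+HDM and 3495 CPM in mock, and Ms4a6c 9921 and 4868 CPM. Retnla took up a larger part of all panel transcripts beneath the muscle in mock than in SspA+HDM. That lowers the CPM of the other genes in mock. The median share of fibroblast markers in a macrophage beneath the muscle was 23.1% in mock and 13.6% in SspA+HDM. The part of either in the ratios beneath the muscle was not tested. Whether the ratios of the layers differ was not tested.

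More genes passed the 2-fold limit between layers than between treatments. The layer comparison rests on fewer cells, with 188 SspA+HDM and 213 mock macrophages beneath the muscle. The part of counting error in these numbers of genes was not tested. Of the 62 genes, 14 (22.6%) were at least 2-fold higher beneath than above the muscle in SspA+HDM macrophages and 18 (29%) were lower. In mock macrophages, 51 genes could be compared, of which 12 (23.5%) were higher beneath and 19 (37.3%) lower. Of the 51, 10 were higher beneath in both sections and 11 lower in both, and 1 gene, Sod3, went opposite ways. The median share of fibroblast markers in a macrophage was 13.6% beneath and 15% above the muscle in SspA+HDM, and 23.1% beneath and 15.3% above in mock.

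Beneath the muscle, Retnla, Lyve1, Mmp9 and C3 stood higher than above it in both sections. C3 was 51016 CPM beneath and 10356 CPM above in SspA+HDM, and 31081 and 9537 CPM in mock. Its level in cells rich in fibroblast markers beneath the muscle was 62352 CPM in SspA+HDM and 48402 CPM in mock, above that of the macrophages, and the part of those cells in the C3 difference was not tested. The selecting genes also followed the layer. Folr2 was 2.08-fold higher beneath the muscle in SspA+HDM and 2.28-fold in mock, while Pf4 was at 0.428 and 0.391 of its level above the muscle and Ms4a7 at 0.458 and 0.381. F13a1, at 1.12 and 0.911, was near even.

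**Figure D4:**
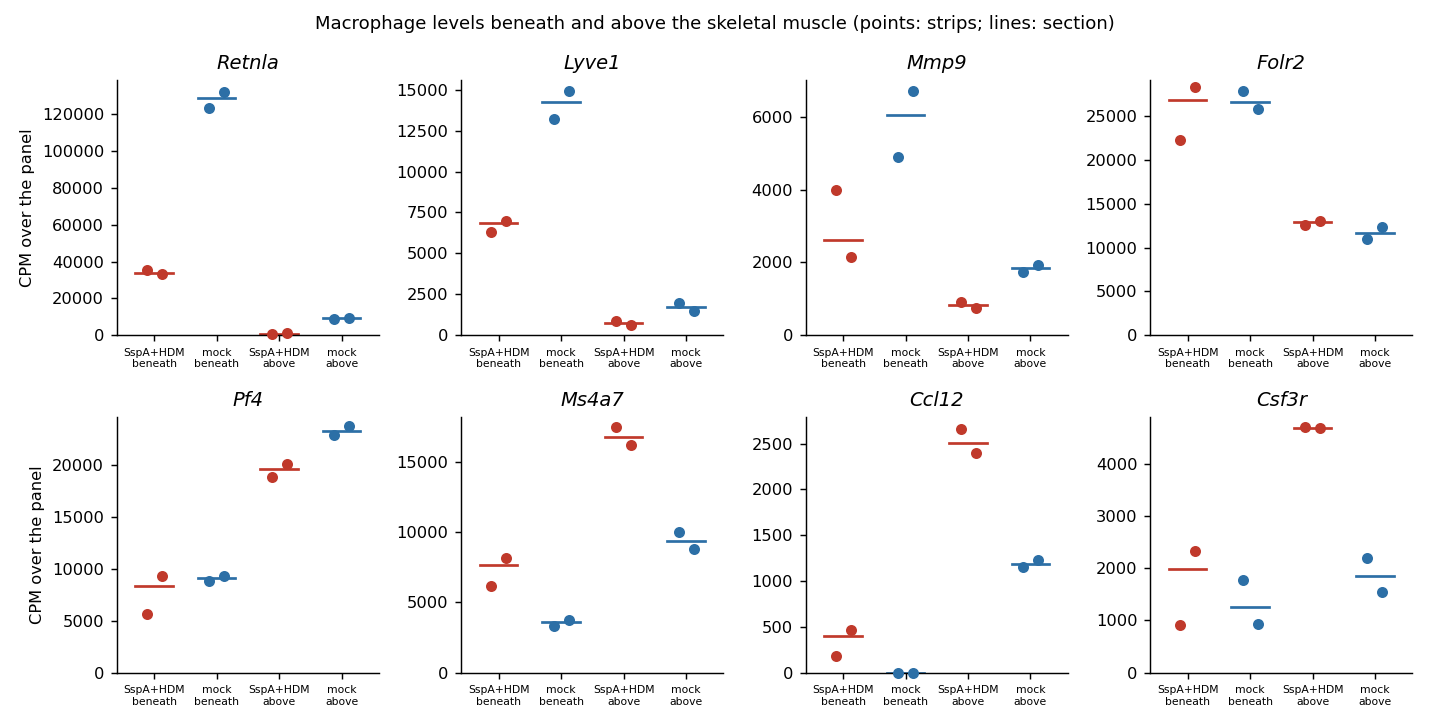
Levels of 8 genes in macrophages (vertical axes, CPM over the panel, each from 0) beneath and above the skeletal muscle in SspA+HDM (red) and mock (blue); points are strips and lines the section. Retnla, Lyve1, Mmp9 and Folr2 are higher beneath the muscle in both sections, Pf4, Ms4a7 and Ccl12 above it, and Retnla stands at 33688 CPM beneath the muscle in SspA+HDM, against 128984 CPM in mock.

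Folr2 and Ms4a7 divided the macrophages into groups that differed in other genes. Above the muscle, 27.5% of SspA+HDM and 20.4% of mock macrophages held Ms4a7 without Folr2, and 15.97% and 26.1% held Folr2 without Ms4a7. Both were found in 40.6% of SspA+HDM and 21.1% of mock macrophages, with higher median transcript counts than the single groups. Neither was found in 15.97% of SspA+HDM and 32.4% of mock macrophages, which held the fewest transcripts, with medians of 64 and 65. In mock, Retnla stood at 18808 CPM in the cells with Folr2 alone and 2137 CPM in those with Ms4a7 alone. In SspA+HDM it stood at 1556 and 117 CPM. With neither gene, Retnla stood at 6593 CPM in mock and 673 CPM in SspA+HDM. Ms4a6c ran the other way, at 18351 CPM in the SspA+HDM cells with Ms4a7 alone and 11125 CPM in those with Folr2 alone, and at 14495 and 9038 CPM in the mock cells. The groups also lay at different depths beneath the surface. In mock the median depth was 96.2 µm with Folr2 alone and 64.7 µm with Ms4a7 alone, and in SspA+HDM 193 and 165 µm. The part of depth and of transcript number in these values was not tested. These groups are split by genes that chose the cells, and their values are a description.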

How the data were processed

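The authors deposited, for each sample, decoded transcripts with position, cell, nuclear overlap and quality score (named qv per the file headers), plus cell outlines as deposited vertex positions. Which software decoded and segmented them is not given in the sources used here. Transcript counts per cell were made here from the authors' deposited transcripts of quality 20 or above, leaving out control and unassigned features. Macrophages were found by the rule given in the report, epithelial cells by at least 8% of the 4 keratinocyte genes and blood endothelial cells by at least 3 transcripts and 4% from Plvap and Vwf. The members and gene lists were chosen with earlier results of these data known. Genes named are the 4 markers, the 10 highest and 10 lowest ratios, the 10 most enriched genes and every measured list gene, plus the genes behind small counts, named after their values were seen. A compared list gene is not reported here. Layers were added after seeing the data: muscle cells within 100 µm along the strip (at least 10) set the muscle from their 10th to 90th percentile of depth. Depth starts at the 2nd percentile of epithelial positions. Counts of 0 were set to 3 in ratios, shares have Clopper-Pearson, sums Poisson and ratios exact conditional intervals. A gene was called at 2-fold. No test was run. Python 3.11.15 with numpy 2.4.6, scipy 1.17.1 and pandas 2.3.3 was used, and the interval and calling code was tested on simulated data. RefSeq held 378 of the 379 names as symbols and 1 as a synonym.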

Additional observations from a re-analysis of the deposited data

Results flagged for a closer look

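In 4 genes the counting interval of the SspA+HDM to mock ratio lay above 1 in 1 layer and below 1 in the other. These differences between layers were not tested. Sod3, extracellular superoxide dismutase, had a log2 ratio of SspA+HDM over mock of 0.61 beneath the muscle and -1.49 above it. Clec4a3, a lectin receptor, had 0.37 beneath and -0.26 above. Dpt and Mfap5, which encode matrix proteins of fibroblasts, went the other way, Dpt with -1.06 beneath and 0.33 above and Mfap5 with -0.32 beneath and 0.53 above. The intervals cover counting error in 1 section per treatment, so they stand for no replication.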

How the results depend on the processing

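The share ratio of 1.07 lay between 1.02 and 1.14 over the other settings of quality, depth, marker number and strip, and for cells above or beneath the muscle, but was 0.919 among cells that are not epithelial, muscle or fat cells and 2.81 per mm of strip. The difference in median distance to epithelium, SspA+HDM minus mock, was 5.46 µm, and 10.1 µm with 6 marker transcripts and 8%. For blood endothelium it was -32.2 µm, and -43.2 µm at quality 30, -44.5 µm for cells with at least 75 transcripts, -26.4 µm with 6 markers and 8%, and -43.5 µm in thinned cells. The 7 genes higher in SspA+HDM became 2 over the nucleus, 4 with 6 markers and 8%, 4 in thinned cells, 12 with each macrophage weighted alike, 40 without the spill-over limit, 4 with that limit at 3 times and 1 in macrophages under 5% of every other marker list. The 14 lower genes became 5, 8 and 7 in the first of those settings, 4 with the limit at 3 times, 1 in those clean macrophages and 5 beneath the muscle. Fewer genes passed the limits in most of these settings, 35 over the nucleus, 40 with 6 markers, 34 thinned, 25 at 3 times and 24 in the clean macrophages, of which there were 146 in SspA+HDM and 38 in mock. With a strip left out the counts were 6 to 8 higher and 10 to 15 lower. Retnla, Lyve1 and Mmp9 were at least 2-fold lower in all 16 alternatives, and Ccl12 at least 2-fold higher in all 15 it could be recomputed in. Of 671 alternatives of 43 named genes, 5 turned the direction of a gene at least 2-fold apart: Ccn3 (log2 -0.16 in clean macrophages, -0.15 beneath the muscle), Cenpf (-0.28, clean), Igfbp6 (1.43, clean) and Il1r2 (0.94, beneath the muscle). Their cause was not tested. Genes closer to equal changed sign more often: C3, Clec4a3 and Hpgd kept their direction in 10 of 16 alternatives, and Ifitm6 and Psmb8 in 12. No paired analysis was possible because each treatment had 1 sample.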

Other observations

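The 3 measured genes of dividing cells stood higher in SspA+HDM macrophage outlines. Stmn1, which encodes a regulator of microtubules, was 6130 CPM in SspA+HDM and 1329 CPM in mock, Ube2c, a ubiquitin enzyme of mitosis, 634 and 222 CPM, and Cenpf, a kinetochore protein, 739 and 135 CPM. All 3 were lower in macrophages than in the cells within 25 µm, at 0.350, 0.362 and 0.286 of their level in SspA+HDM and 0.256, 0.447 and 0.181 in mock, so they were not compared. Within the muscle layer, macrophages were 4.41% of cells in SspA+HDM (166 cells) and 0.986% in mock (18 cells); the rule leaves out cells with 30% or more muscle transcripts. A further 1122 SspA+HDM and 319 mock cells met the marker rule and were stopped by a limit other than the keratinocyte one, mostly holding more transcripts, with medians of 156.5 and 151.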
